A study of Mus musculus with 8 samples.

Results

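The genes described here are 10 transcription factor genes that set natural killer (NK) and T cell fates, namely Tbx21, Eomes, Zeb2, Tcf7, Lef1, Id2, Id3, Tox, Prdm1 and Ikzf2. They were taken by symbol, and all 10 were found among the 33696 genes listed in each of 6 droplet single-cell mRNA libraries of tumour-bearing mouse liver. Each was read as unique molecular identifiers (UMIs, one for each captured RNA molecule) in 1002 NK cells and 4204 T cells, and in subsets of them, that were called from UMIs of other marker genes.

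T-bet (Tbx21) and Eomes are related T-box factors that drive NK maturation, interferon gamma and cytotoxic genes. Zeb2, a zinc finger repressor, and Blimp-1 (Prdm1) act late in that course, while TCF-1 (Tcf7) and LEF-1 (Lef1) keep naive and memory-like states. Id2 and Id3 bind E proteins and keep them off DNA, Tox acts in lymphocyte development and in exhausted CD8 T cells, and Helios (Ikzf2) is known from regulatory T cells. In mouse liver, NK cells and ILC1, the type 1 innate lymphoid cells, are told apart by Eomes, which ILC1 largely lack, while both use T-bet.

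Knockout mice carried Ncr1iCre and Nr4a1fl/fl, so that Nr4a1, which encodes the nuclear receptor Nur77, is meant to be deleted where Ncr1 (NKp46) is active, in NK cells, ILC1 and some T cells. Control mice carried Nr4a1fl/fl with wild-type Ncr1 and had no Cre. All were male C57BL/6 mice, injected into the tail vein at 8 to 10 weeks of age with 30 µg of plasmid (CRISPR-Cas9 vectors with a guide RNA against Trp53, a c-Myc transposon and the SB13 transposase under a CMV promoter), which raises liver tumours, and were killed 4 to 5 weeks later. Each group had 3 libraries. Those numbered 1 and 2 are labelled as biological replicates without the number of animals, knockout 3 pooled 2 mice and control 3 pooled 3 mice.

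Kept cells numbered 134 to 9179 per library, with 887170 to 82304302 UMIs. Knockout 2 and control 2 stood apart, with a median mitochondrial share of 75.1% and 27.9% over barcodes of at least 500 UMIs, against 6.68% to 10.0% in the other libraries, and knockout 2 kept 29 NK cells and 2 T cells. A library entered a cell class with at least 10 of its cells, so of the lymphocyte classes described here knockout 2 entered for all NK cells only. Any pair of libraries shared 0 to 15 cell barcodes. The gates matched markers they did not use: in NK cells Klra4 (Ly49D) lay at 367 to 737 CPM (the UMIs of a gene scaled to a common total of UMIs for every library and class) and Cd5 at 0 to 4.14 CPM, and in T cells Klra4 lay at 3.61 to 44.6 CPM and Cd5 at 71.3 to 126 CPM. In NK cells Nr4a1 itself was read at 161.5, 0 and 52.3 CPM in knockouts 1, 2 and 3, and at 71.6, 31.1 and 42.8 CPM in controls 1, 2 and 3. The 0 of knockout 2 allows up to 25.8 CPM (3 counts, counting error only). Knockout 1 thus lay above the controls and knockout 3 within their range, but these tags come from the 3′ end of the transcript and the floxed part is not given in the sources used here, which leaves the deletion and the labels unchecked by this gene. A few cells held tumour RNA (at least 5 UMIs over H19, Afp and Bex4) and were very deep: 10 of the NK cells held up to 30.6% of a library's NK UMIs, and 5 of 141 ILC1-like cells held 35.4% to 66.7%. Results are given with and without them where that changes a call.

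Tbx21 and Eomes were highest in mature NK cells (NK-gate cells with a UMI of Itgam, Klrg1, S1pr5 or Cma1 and none of Cxcr6, Itga1 or Cd200r1). Tbx21 lay at 274.9 and 157.8 CPM in knockouts 1 and 3, and at 287.8, 336.3 and 232.6 CPM in controls 1, 2 and 3, a mean of 257.9 ± 67.1 CPM over mature NK cells (SD, n = 5 libraries). It was next in less mature NK cells (165.4 ± 65.0 CPM) and effector CD8 T cells (163.7 ± 30.7 CPM), and lowest in naive-like CD8 T cells (29.8 ± 17.6 CPM) and regulatory T cells (29.6 ± 0.392 CPM, n = 2). No 2 neighbours in the order of its 9 subsets were apart in every library. This order uses all gated cells, and tumour-RNA cells held 35.4% to 66.7% of the ILC1-like UMIs. Without those cells each ILC1-like library lay above the mean of less mature NK cells given here.

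Eomes had 224.0 and 202.9 CPM in mature NK cells of knockouts 1 and 3, and 158.6, 184.4 and 157.3 CPM in those of controls 1, 2 and 3, a mean of 185.5 ± 28.7 CPM. Less mature NK cells held 155.4 ± 31.7 CPM. The libraries of these 2 subsets overlapped, and all lay above every library of the next subset, effector CD8 T cells, at 50.8 ± 11.5 CPM. This order too uses all gated cells, with tumour-RNA cells at 35.4% to 66.7% of the ILC1-like UMIs. Without them ILC1-like cells lay less far below mature NK cells, as given below, so their place in the order can differ. NKT-like T cells (with Zbtb16 or Klrb1c and no Cd8a or Cd8b1) held Tbx21 at 127.1 ± 58.9 CPM and Eomes at 14.5 ± 8.83 CPM. These levels include tumour-RNA cells, 30 of 602, which held 0% to 62.7% of the NKT-like UMIs by library.

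Zeb2 followed the T-box factors at the top of its order, with 533.0 ± 150.9 CPM in mature NK cells, 224.2 ± 80.9 CPM in effector CD8 T cells and 171.0 ± 37.0 CPM in less mature NK cells. The next subset over all gated cells, conventional CD4 T cells, held 77.5 ± 31.3 CPM and lay below all libraries of less mature NK cells. Tumour-RNA cells held 35.4% to 66.7% of the ILC1-like UMIs. Without them ILC1-like cells lay less far below mature NK cells in Zeb2, as given below, so their place in this order can differ. Prdm1, which encodes a repressor of late effector cells and plasma cells, was highest in regulatory T cells (93.3 ± 13.4 CPM, n = 2), mature NK cells (75.0 ± 18.1 CPM) and effector CD8 T cells (61.9 ± 5.81 CPM). It was read at 2.02 and 4.2 CPM in naive-like CD8 T cells of knockouts 1 and 3, and at 0 and 2.07 CPM in those of controls 1 and 3, where the 0 allows up to 41.2 CPM.

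Tcf7 and Lef1 were highest in naive-like CD8 T cells. Tcf7 had 382.5 and 275.1 CPM in naive-like CD8 T cells (with Ccr7 or another marker of the gate and no UMI of Ccl5 or granzymes A, B and K) of knockouts 1 and 3, and 535.5 and 367.7 CPM in those of controls 1 and 3. All 4 libraries lay above those of conventional CD4 T cells (202.5 ± 51.3 CPM), and these above gamma delta T cells (144.7 ± 24.8 CPM). Lef1 had 1078.7 and 873.5 CPM in naive-like CD8 T cells of knockouts 1 and 3, and 1304.5 and 1043.3 CPM in those of controls 1 and 3, against 414.1 ± 132.7 CPM in conventional CD4 T cells. In regulatory T cells Tcf7 was lowest of its 9 subsets (23.0 ± 1.35 CPM, n = 2), and Lef1 was lowest in ILC1-like cells (35.0 ± 23.7 CPM, n = 3). The ILC1-like totals here include the tumour-RNA cells.

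Over all gated cells Id2, needed for NK cells and ILC1 to form, was read widely, from 615.8 ± 77.4 CPM in less mature NK cells and 589.4 ± 53.8 CPM in mature NK cells down to 266.6 ± 131.7 CPM in regulatory T cells. Naive-like CD8 T cells alone lay below this range in every library, with 58.7 and 63.0 CPM in knockouts 1 and 3, and 68.7 and 99.2 CPM in controls 1 and 3. Id3 ran the other way and was low throughout, at 61.4 ± 13.7 CPM in naive-like CD8 T cells, 45.4 ± 11.2 CPM in conventional CD4 T cells and 6.51 ± 3.32 CPM in mature NK cells, and no neighbours in its order were apart in every library.

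Tox and Ikzf2 were highest in regulatory T cells (with Foxp3). Ikzf2 was read there at 1819.1 CPM in knockout 1 and 1732.5 CPM in control 3, and its next subset, gamma delta T cells, held 408.0 ± 81.4 CPM. Tox was read in regulatory T cells at 813.8 CPM in knockout 1 and 1115.9 CPM in control 3, then at 537.2 ± 176.2 CPM in conventional CD4 T cells. The order uses all gated cells. Without tumour-RNA cells Tox in ILC1-like cells rose against mature NK cells, as given below, so their place can differ. The ratio of highest to lowest subset mean was smallest for Tox: its lowest subset, naive-like CD8 T cells, held 217.5 ± 86.6 CPM. Outside lymphocytes, cells rich in hepatocyte genes held Id2 at 52.5 ± 12.9 CPM (n = 5) and Id3 at 6.76 ± 1.73 CPM, and the means of the other 8 members lay between 0.0609 and 1.14 CPM. Zeb2 was high in myeloid cells (1303 ± 304 CPM, n = 6), which also held Id2 (179.5 ± 121 CPM) and Id3 (115.3 ± 100.2 CPM), and stood at 166.4 ± 26.7 CPM in B cells (n = 5).

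**Figure D1:**
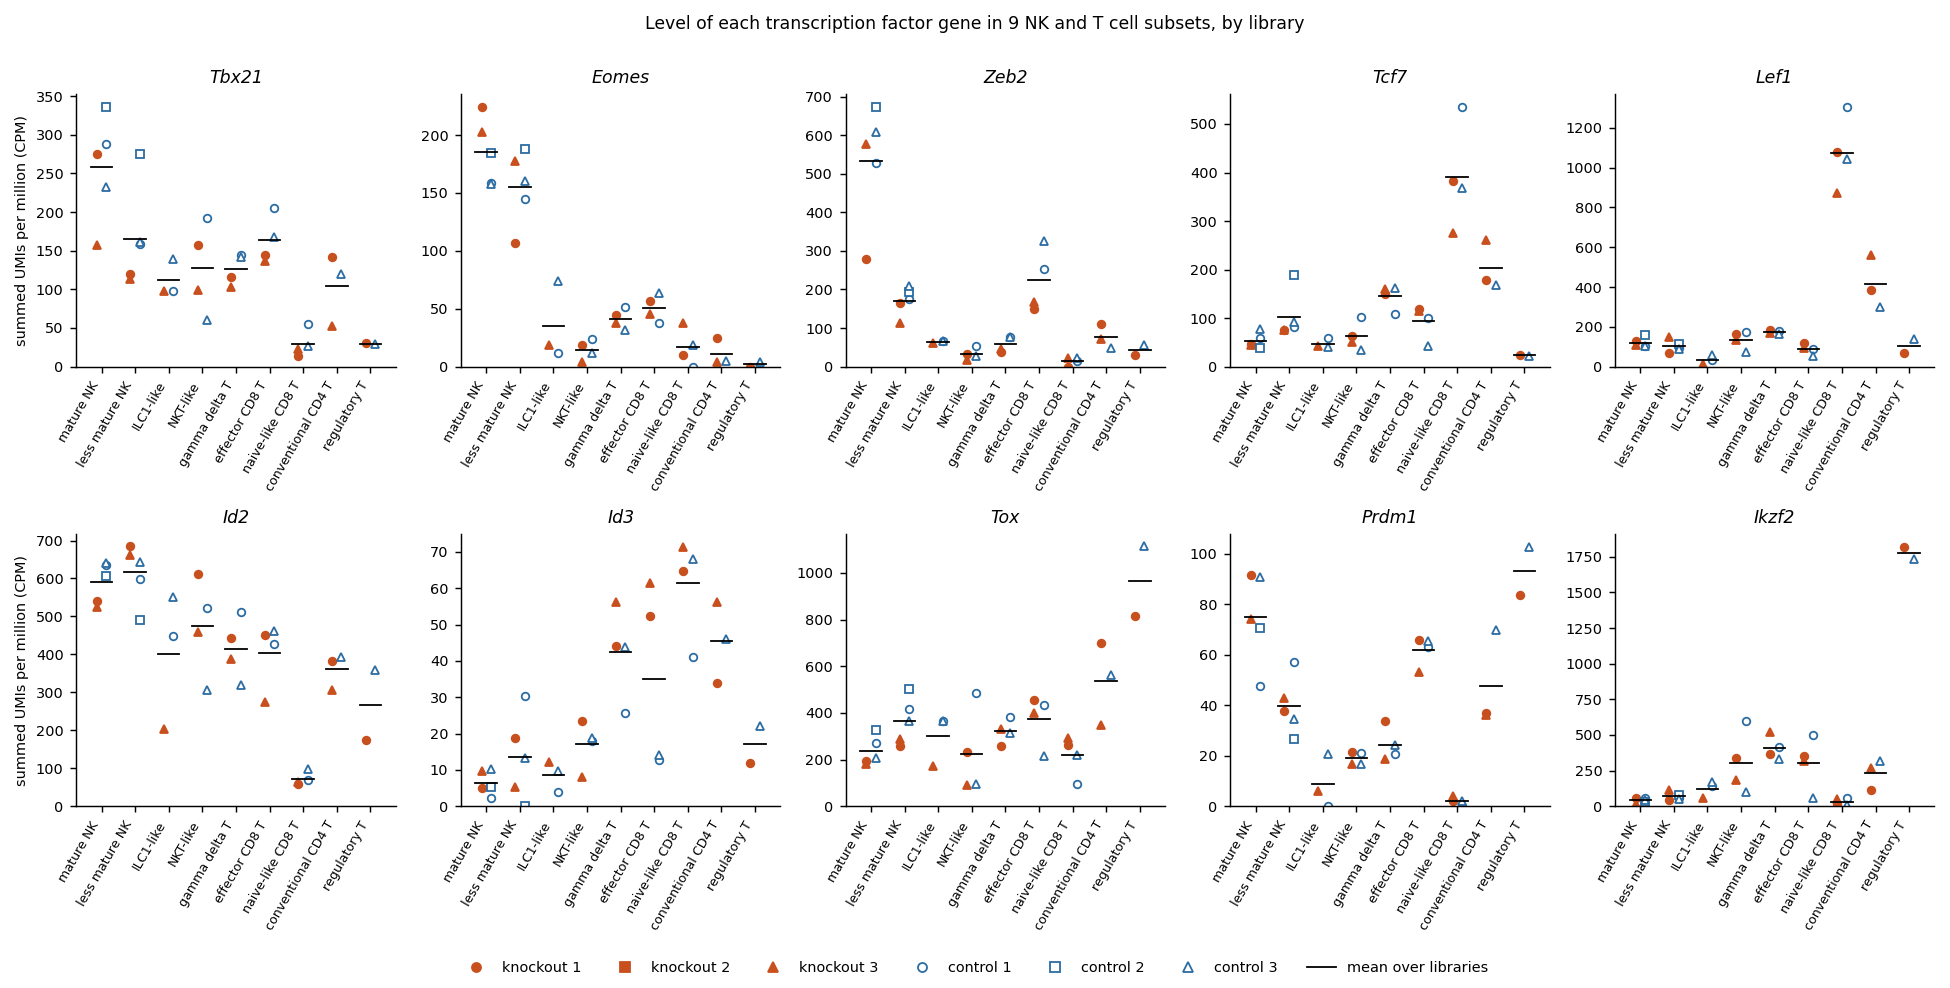
Level of each of the 10 genes (vertical axes, summed UMIs in CPM, from 0) in 9 NK and T cell subsets. Each point is 1 library with at least 10 cells of the subset, knockout libraries (filled) left of control libraries (open), and the bar is the mean over libraries; knockout 2 reached 10 cells in none of these subsets. By mean, Tbx21, Eomes and Zeb2 peak in mature NK cells, Tcf7, Lef1 and Id3 in naive-like CD8 T cells, and Tox, Prdm1 and Ikzf2 in regulatory T cells (2 libraries).

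Promoter windows of RefSeq (GRCm38.p6, not the GRCm39 build of the files) were matched by symbol for 8 of the 10 genes, and for each window the 250 bases before the transcript start were read. The most upstream windows of Tcf7 and Lef1, higher in naive-like than in effector CD8 T cells, and of Tbx21 and Prdm1, lower there, are shown because E proteins, which Id2 and Id3 hold off, bind E-boxes (CANNTG, capitals), and Zeb2 binds the form CACCTG. Both strands were searched.
Tcf7 (chr11:52283015-52283264, minus strand): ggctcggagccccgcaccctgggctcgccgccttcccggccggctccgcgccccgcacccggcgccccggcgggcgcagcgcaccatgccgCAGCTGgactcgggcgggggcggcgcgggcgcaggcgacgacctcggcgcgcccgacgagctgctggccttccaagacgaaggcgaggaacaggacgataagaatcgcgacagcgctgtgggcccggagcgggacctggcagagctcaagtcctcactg
Lef1 (chr3:131110047-131110296, plus strand): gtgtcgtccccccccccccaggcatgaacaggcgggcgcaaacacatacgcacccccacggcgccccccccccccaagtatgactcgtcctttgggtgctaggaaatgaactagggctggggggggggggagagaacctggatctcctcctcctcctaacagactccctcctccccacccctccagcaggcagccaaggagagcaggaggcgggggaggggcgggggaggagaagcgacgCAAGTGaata
Tbx21 (chr11:97115332-97115581, minus strand): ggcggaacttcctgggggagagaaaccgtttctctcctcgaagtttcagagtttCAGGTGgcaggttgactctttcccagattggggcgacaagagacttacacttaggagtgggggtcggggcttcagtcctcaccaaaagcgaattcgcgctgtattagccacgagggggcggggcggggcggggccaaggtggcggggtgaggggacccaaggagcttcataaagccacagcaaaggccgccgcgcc
Prdm1 (chr10:44458749-44458998, minus strand): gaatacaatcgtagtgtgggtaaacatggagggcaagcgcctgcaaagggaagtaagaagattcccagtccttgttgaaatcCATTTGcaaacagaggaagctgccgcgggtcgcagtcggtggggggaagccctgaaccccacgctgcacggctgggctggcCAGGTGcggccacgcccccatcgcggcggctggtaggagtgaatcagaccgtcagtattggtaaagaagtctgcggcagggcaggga
The windows of Tcf7, Lef1 and Tbx21 held 1 E-box each and that of Prdm1 held 2, and those of Tbx21 and Prdm1 held 1 of the form CACCTG each. Of 32851 windows of this length, 66.2% held an E-box and 17.2% held CACCTG. The T-box site core GGTGTGA (3.33% of windows) and the Blimp-1 core GAAAGTG (4.01%) were in none of the windows of the 8 genes, and the TCF and LEF core CTTTGA (13.8%) was in 1, a later start of Lef1 (chr3:131156044-131156293), which held 2. In the Tcf7 window an ATG just before the E-box opens a reading frame without a stop codon to the window's end. That stretch, E-box included, can thus be coding sequence of a transcript with an earlier start, not promoter. A match describes letters in these windows only.

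Between naive-like and effector CD8 T cells (with at least 2 UMIs of Ccl5 and granzymes A, B and K and none of Ccr7 or the other marker of the naive-like gate) 9 of the 10 genes differed. Compared within 4 libraries (edgeR quasi-likelihood test, library as a block, Benjamini-Hochberg adjusted p under 0.05), 3 were higher in naive-like cells and 6 lower, where 26.5% of the 6004 genes tested passed (14% or 841 higher, 12.5% or 748 lower). Scaled by library totals without TMM, the median of all genes was -0.20 and the split 530 higher and 1174 lower, while the 10 members kept their directions. Lef1 (log2 fold change 3.84, SE 0.22, adjusted p = 4.8e-07) and Tcf7 (2.31, SE 0.28, adjusted p = 9e-05) were higher in naive-like cells in each library, and so was Id3 (1.2, SE 0.38, adjusted p = 0.033). Id3 was uneven, since effector CD8 T cells held 52.3 and 61.6 CPM in knockouts 1 and 3 but 12.6 and 14.0 CPM in controls 1 and 3. Without control 3 it stood at 0.50 and without control 1 at 1.14, neither passing.

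Lower in naive-like cells were Prdm1 (-4.32, SE 0.44, adjusted p = 2.4e-05), Zeb2 (-3.67, SE 0.39), Ikzf2 (-3.14, SE 0.29), Tbx21 (-2.50, SE 0.24), Id2 (-2.25, SE 0.20) and Eomes (-1.25, SE 0.39, adjusted p = 0.034). Zeb2 showed it plainly: naive-like cells held 0 and 23.1 CPM in knockouts 1 and 3 and 13.7 and 22.7 CPM in controls 1 and 3, and effector cells held 150.3 and 168.4 CPM in the same knockouts and 252.6 and 325.5 CPM in the same controls. The call for Eomes was lost without control 1, control 3 or knockout 1 (-1.19, -1.10 and -0.91). Tox did not pass (-0.46, SE 0.26, adjusted p = 0.21), with 261.1, 294.0, 96.1 and 219.0 CPM in naive-like cells of knockouts 1 and 3 and controls 1 and 3, against 453.3, 399.7, 432.5 and 214.7 CPM in effector cells.

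Effector CD8 T cells with a UMI of the checkpoint genes Pdcd1, Havcr2 or Lag3 held more Tox and Ikzf2 and less Zeb2, Lef1 and, except in control 1, Tcf7 than those without. Here 6.44% of 5514 genes passed (3.05% higher, 3.39% lower), and 2 of the 10 members were higher and 3 lower. Tox had 628.6 and 454.4 CPM in cells with checkpoint UMIs of knockouts 1 and 3 and 717.5 and 351.7 CPM in those of controls 1 and 3. Cells without them held 258.6 and 355.1 CPM in the knockouts and 277.7 and 141.7 CPM in the controls, so Tox was higher with checkpoint UMIs in each library (1.03, SE 0.17, adjusted p = 0.0012). The other 4 calls were Ikzf2 (1.12, SE 0.21, adjusted p = 0.0038), Zeb2 (-1.07, SE 0.21, adjusted p = 0.0043), Lef1 (-0.98, SE 0.25, adjusted p = 0.023) and Tcf7 (-0.89, SE 0.26, adjusted p = 0.046). Tcf7 went the other way in control 1, with 152.5 CPM (17 UMIs) in cells with checkpoint UMIs and 73.1 CPM (15 UMIs) in those without. Cells with checkpoint UMIs were deeper, with library medians of 4171 to 9265 UMIs, against 3055 to 4691 UMIs without. With each cell thinned to 1000 UMIs the calls of Ikzf2 (0.71) and Zeb2 (-0.72) were lost. That of Lef1 was lost without control 1, knockout 1 or knockout 3 (-0.93, -0.69 and -0.87), and that of Tcf7 without control 3, knockout 1 or knockout 3 (-0.76, -0.68 and -0.87). Eomes (0.46, SE 0.22) and Prdm1 (0.04, SE 0.21) did not pass.

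Less mature NK cells (with Cd27, Emb or Ltb and no UMI of the mature NK or ILC1-like markers) held less Zeb2 and Tbx21 and more Tox than mature ones. Zeb2 had 163.6 and 112.9 CPM in less mature cells of knockouts 1 and 3, and 175.1, 194.4 and 209.2 CPM in those of controls 1, 2 and 3. Mature cells held 280.0 and 576.5 CPM in the same knockouts and 528.0, 672.7 and 607.9 CPM in the same controls. All 5 libraries went the same way, at -1.58 on the log2 scale (SE 0.16, adjusted p = 6.7e-06). Of 9 members tested, 1 was higher and 2 lower, where 4.72% of 3898 genes passed (2.67% or 104 higher and 2.05% or 80 lower, or 71 and 96 scaled by library totals without TMM). Tox was higher in less mature cells (0.70, SE 0.12, adjusted p = 0.0029) and Tbx21 lower (-0.61, SE 0.15, adjusted p = 0.024). The call for Tbx21 was lost without control 1, control 3, knockout 1 or knockout 3 (-0.53 to -0.67), and that for Tox without control 3 (0.63). Eomes differed little (-0.16, SE 0.16), Tcf7 stood at 0.73 (SE 0.24, adjusted p = 0.095) and Prdm1 at -0.88 (SE 0.26, adjusted p = 0.06).

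ILC1-like cells (NK-gate cells with Cxcr6, Itga1 or Cd200r1 and no UMI of Itgam, S1pr5 or Cma1) held less Zeb2, Prdm1 and Eomes and more Ikzf2 than mature NK cells, with or without the deep tumour-RNA cells. Zeb2 was read at 61.4 CPM in knockout 3 and at 66.4 and 66.8 CPM in controls 1 and 3, against 576.5 CPM in mature NK cells of knockout 3 and 528.0 and 607.9 CPM in those of controls 1 and 3 (-3.03, SE 0.26, adjusted p = 3.2e-06). Eomes had 18.4 CPM in ILC1-like cells of knockout 3 and 11.7 and 74.1 CPM in those of controls 1 and 3 (-2.05, SE 0.39, adjusted p = 0.0013). Prdm1 stood at -2.66 (SE 0.46, adjusted p = 0.00056) and Ikzf2 at 1.75 (SE 0.27, adjusted p = 0.00026). Of 9 members tested 1 was higher and 5 lower, where 25% of 6318 genes passed (15.2% higher, 9.78% lower).

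Tumour RNA took much of the ILC1-like totals, so the same levels were read without those cells, where 243 of 5420 genes passed (4.48%). Zeb2 (-2.26), Prdm1 (-2.11, adjusted p = 0.0019), Eomes (-1.26, adjusted p = 0.011) and Ikzf2 (2.46) kept their calls. The calls of Tbx21 (-0.93, adjusted p = 0.013) and Lef1 (-1.27, adjusted p = 0.0087) were lost, at -0.16 (adjusted p = 0.87) and -0.55 (adjusted p = 0.37). Tox gained one, at 1.38 (SE 0.20, adjusted p = 4.2e-05) without these cells and 0.54 (SE 0.25, adjusted p = 0.13) with them. Tbx21 then lay at 294.7 CPM in ILC1-like cells of knockout 3 and 191.3 and 214.1 CPM in those of controls 1 and 3. Mature NK cells of the same 3 libraries held 157.8, 283.5 and 242.3 CPM, so that the subsets overlapped.

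Regulatory T cells were set against conventional CD4 T cells in 2 libraries, knockout 1 and control 3. Ikzf2 was higher (3.07, SE 0.32, adjusted p = 2.3e-05), with 1819.1 and 1732.5 CPM in regulatory T cells of the 2 libraries and 114.0 and 316.7 CPM in conventional ones. Tcf7 (-2.96, SE 0.48, adjusted p = 0.002), Tbx21 (-2.17, SE 0.45, adjusted p = 0.012) and Lef1 (-1.74, SE 0.40, adjusted p = 0.021) were lower. That is 1 higher and 3 lower of 9 tested, where 2.83% of 4667 genes passed (1.31% higher, 1.52% lower). Tox and Prdm1, also highest in regulatory T cells by mean level, were thus not called higher here. The 4 calls rest on 12 and 40 regulatory T cells. All 4 were lost with hashtag multiplets removed from control 3, with values of 3.06, -2.90, -2.10 and -1.70 for Ikzf2, Tcf7, Tbx21 and Lef1.

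Over all NK cells and all T cells, compared within 5 libraries, 3 members were higher in NK cells and 4 lower, where 8.03% of 9437 genes passed (3.83% higher, 4.21% lower). Eomes (1.75, SE 0.18, adjusted p = 0.00015), Zeb2 (1.48, SE 0.24, adjusted p = 0.0028) and Id2 (0.70, SE 0.13, adjusted p = 0.0072) were higher. Ikzf2 (-2.15, SE 0.32), Id3 (-2.14, SE 0.32), Lef1 (-1.62, SE 0.21) and Tcf7 (-1.39, SE 0.22) were lower, with adjusted p from 0.00084 to 0.0023. Tbx21 did not pass (0.55, SE 0.16, adjusted p = 0.065) and passed without tumour-RNA cells (0.59, SE 0.13, adjusted p = 0.0032), Tox stood at -0.29 (SE 0.16) and Prdm1 at 0.40 (SE 0.18).

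**Figure D2:**
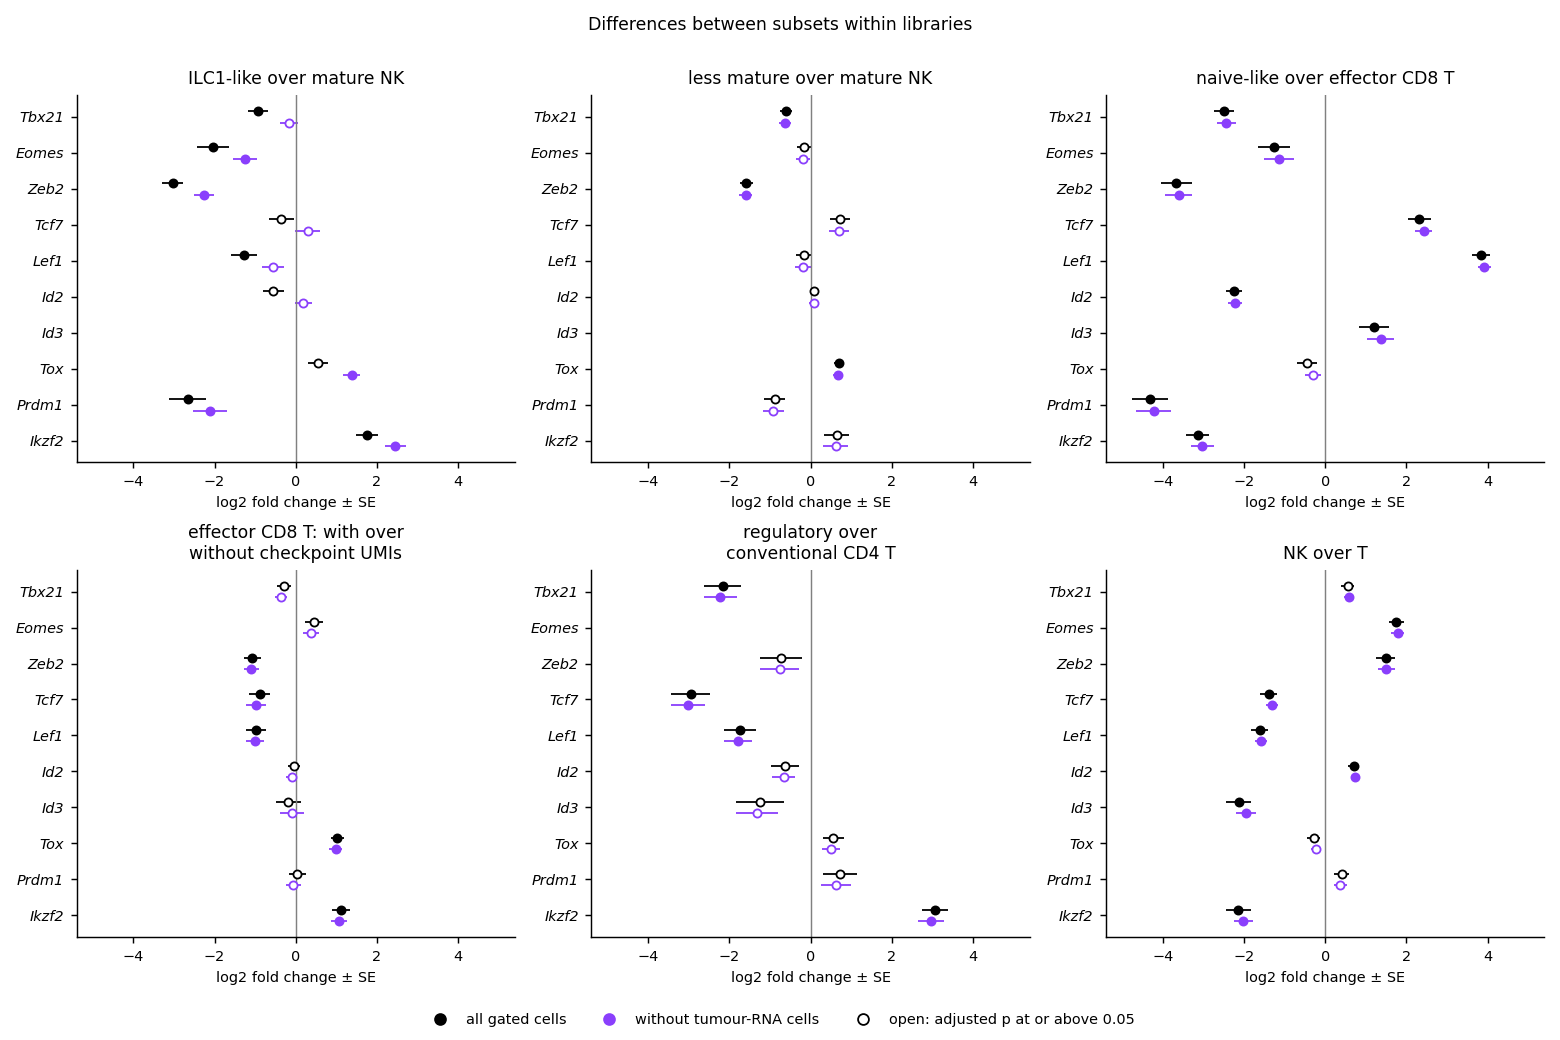
Log2 fold change ± SE of each gene (horizontal axes) between subsets of the same libraries, with all gated cells (black) and without tumour-RNA cells (purple); filled points have an adjusted p under 0.05 and genes without a point did not pass the filter on low counts. Lef1 stands at 3.84 and Prdm1 at -4.32 in naive-like over effector CD8 T cells, and in ILC1-like over mature NK cells Tbx21 is at -0.93 with all cells and -0.16 without tumour-RNA cells.

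Tbx21 and Eomes were often read in the same NK cell. A UMI of both was found in 119 of 392 mature NK cells (21.0% to 50% by library), 75 of 251 less mature NK cells (25.8% to 33.3%), 16 of 141 ILC1-like cells (4.44% to 16.3%) and 211 of 1461 effector CD8 T cells (8.87% to 15.9%). In ILC1-like cells 66 held Tbx21 alone and 11 Eomes alone. In NKT-like T cells 25 of 602 held both and 273 Tbx21 alone. Such shares move with depth: with each cell thinned to 1000 UMIs, both were found in 14 of 386 mature NK cells and in 0 of 140 ILC1-like cells, which allows up to 2.14% of cells with a UMI of both at that depth (3 counts, counting error only) and does not limit the share of cells that express them. In B cells, for comparison, a UMI of Tbx21 was in 0% to 1.96% of cells by library and one of Eomes in 0% to 0.361%, at library medians of 2019 to 3259 UMIs, against 3281 to 4681 UMIs in mature NK cells and 3835 to 5059 UMIs in ILC1-like cells. Tcf7 and Lef1 were both read in 194 of 248 naive-like CD8 T cells (74.1% to 81.9% by library), and in 51 of 248 after thinning.

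**Figure D3:**
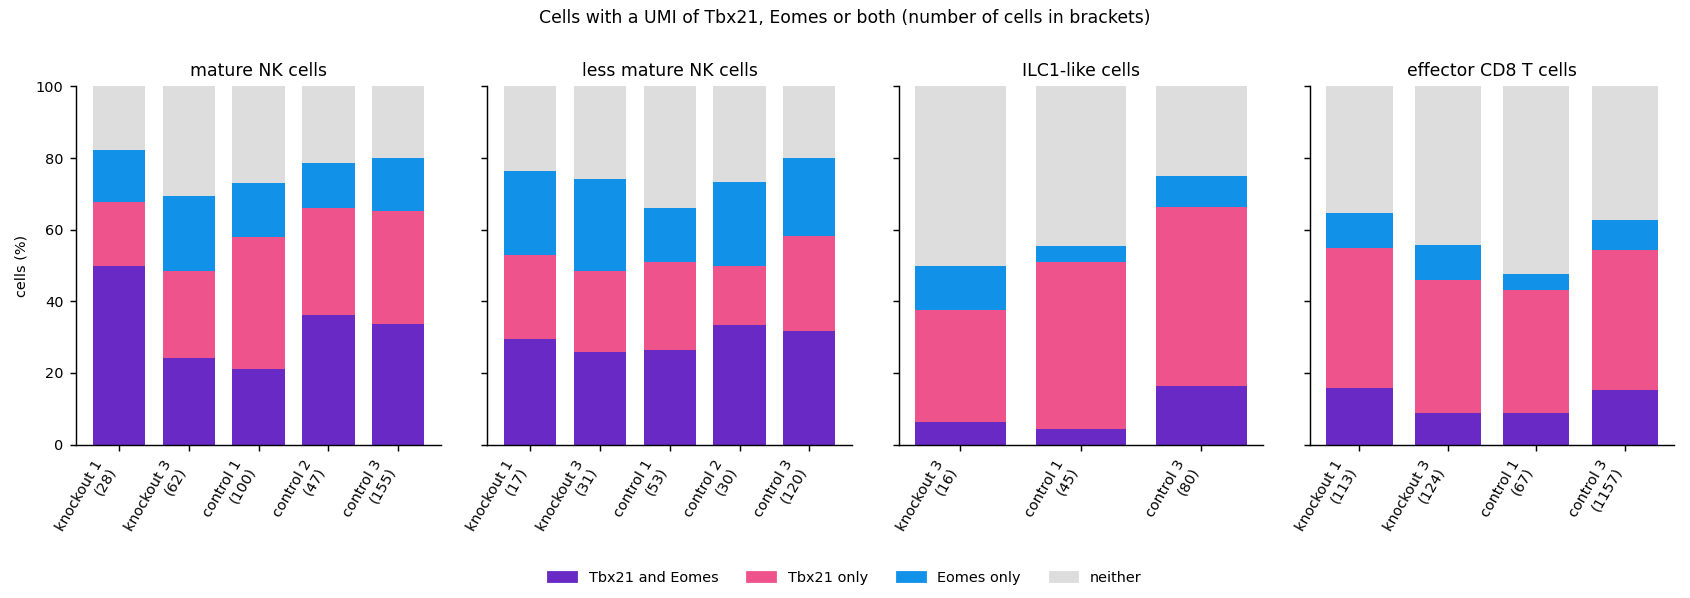
Share of cells (vertical axis, %) with a UMI of both Tbx21 and Eomes, of one or of neither, by library, in mature NK, less mature NK, ILC1-like and effector CD8 T cells, with the number of cells in brackets and knockout libraries left of control libraries. Both genes were read in 21.0% to 50% of mature NK cells and in 4.44% to 16.3% of ILC1-like cells.

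Between knockout and control NK cells no member passed, and 0% of 7952 genes did (edgeR quasi-likelihood test, 3 against 3 libraries; 168 had an unadjusted p under 0.05 and DESeq2 called 0). Tox and Tcf7 stood nearest. Tox had 192.97, 197.5 and 165.4 CPM in knockouts 1, 2 and 3, and 346.4, 497.8 and 305.8 CPM in controls 1, 2 and 3. Each knockout library lay below each control library, as they did for 3.7% of the 7952 genes (6.89% did not overlap in either direction), and the log2 fold change was -1.06 (SE 0.29, adjusted p = 1), or -1.0 with the replicate number as a block (SE 0.20, adjusted p = 0.082; 0.189% of genes and no member passed). Tcf7 had 38.6, 34.4 and 40.5 CPM in knockouts 1, 2 and 3, and 65.4, 95.7 and 67.7 CPM in controls 1, 2 and 3. These groups did not overlap either (-0.94, SE 0.29, adjusted p = 1), though knockout 2 rested on 4 UMIs. By mouse, Tcf7 in the 2 mice of knockout 3 was 65.6 and 30.8 CPM, against 73.0, 82.2 and 54.2 CPM in the 3 mice of control 3, so the mice overlapped. Tox was 227.0 and 148.4 CPM in those knockout mice, against 263.1, 325.4 and 327.2 CPM in the control mice.

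The other 8 members overlapped between the groups in NK cells, and Id3 did not pass the filter on low counts. Tbx21 stood at -0.01 (SE 0.45), with 177.2, 455.2 and 116.3 CPM in knockouts 1, 2 and 3, and 178.8, 327.9 and 184.0 CPM in controls 1, 2 and 3; the libraries numbered 2 were high in both groups. Eomes stood at -0.08 (SE 0.31), Zeb2 at -0.22 (SE 0.42), Id2 at -0.34 (SE 0.32), Prdm1 at -0.34 (SE 0.34), Lef1 at -0.22 (SE 0.35) and Ikzf2 at 0.01 (SE 0.30). Hepatocyte RNA (Alb and Apoa1 summed) in these cells was 94.5 to 939 CPM in knockout and 35.9 to 456 CPM in control libraries, and B cell RNA (Igkc and Cd74) 0 to 1208 CPM and 0 to 210 CPM; their part in these values was not tested. Without tumour-RNA cells Tox stood at -0.90 (SE 0.25) and Tcf7 at -0.73 (SE 0.27).

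In mature NK cells Tox stood at -0.46 (SE 0.27) and Tcf7 at -0.43 (SE 0.39), and 9 members were tested of which none passed (0% of 5190 genes, 236 at an unadjusted p under 0.05, 8 called by DESeq2). Tox had 193.5 and 180.4 CPM in mature NK cells of knockouts 1 and 3, against 269.6, 325.5 and 207.9 CPM in those of controls 1, 2 and 3, with no overlap between libraries, where 12.4% of the genes tested lay lower and 9% higher without overlap. The mice overlapped, with 190.4 and 206.6 CPM in those of knockout 3 against 274.4, 193.4 and 213.5 CPM in those of control 3. Eomes was higher in both knockout libraries (0.40, SE 0.24), with 224.0 and 202.9 CPM against 158.6, 184.4 and 157.3 CPM in controls, while the mice overlapped (150.0 and 241.0 CPM against 174.1, 179.3 and 108.6 CPM). In less mature NK cells 8 members were tested and none passed (0% of 3503 genes, 123 at an unadjusted p under 0.05, 3 called by DESeq2). Tox there had 258.0 and 290.2 CPM in knockouts 1 and 3 and 417.6, 502.9 and 363.4 CPM in controls (-0.61, SE 0.27). Tbx21 had 119.6 and 112.9 CPM in knockouts 1 and 3 and 158.3, 274.9 and 161.4 CPM in controls (-0.70, SE 0.33).

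In T cells, most of which do not use Ncr1, no member passed in 2 knockout against 3 control libraries (0% of 12795 genes, 84 at an unadjusted p under 0.05, DESeq2 0). Zeb2 stood at -1.01 (SE 0.39) and Id3 at 0.75 (SE 0.27). The knockout effect in NK cells minus that in T cells was -0.94 for Tcf7 (SE 0.38), -0.69 for Tox (SE 0.29) and -1.27 for Id3 (SE 0.63), and no member passed (0% of 10758 genes, 180 at an unadjusted p under 0.05, DESeq2 4).

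With the gates as defined above and no library left out, Id3 in effector CD8 T cells had the largest knockout-over-control fold change of any member and class. It had 52.3 and 61.6 CPM in knockouts 1 and 3 (47 and 45 UMIs), and 12.6 and 14.0 CPM in controls 1 and 3 (4 and 107 UMIs). The 2 mice of knockout 3 had 60.1 and 60.5 CPM, and the 3 mice of control 3 had 21.1, 10.2 and 17.0 CPM, so neither libraries nor mice overlapped. For mice the share of all genes without overlap was not counted. The log2 fold change of Id3 was 2.05 (SE 0.31) and did not pass without the block (adjusted p = 0.52), where 0% of 7738 genes passed, 261 had an unadjusted p under 0.05 and DESeq2 called 2. Blocking on the replicate number, 43 genes passed (0.556%), among them Id3 (2.13, SE 0.32, adjusted p = 0.0025) and Zeb2 (-0.83, SE 0.18, adjusted p = 0.049). That fit left 1 residual degree of freedom, and whether libraries 1 and 3 are paired by number is not settled. With mice as units in the block, Id3 (1.99, SE 0.34, adjusted p = 0.44) and Zeb2 (-0.97, SE 0.41, adjusted p = 0.78) did not pass.

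Zeb2 in effector CD8 T cells had 150.3 and 168.4 CPM in knockouts 1 and 3, and 252.6 and 325.5 CPM in controls 1 and 3. By mouse the groups overlapped, with 67.3 and 215.7 CPM in the mice of knockout 3 against 360.0, 364.2 and 121.6 CPM in those of control 3. Tcf7 had 119.2 and 113.6 CPM in knockouts 1 and 3 and 101.0 and 42.5 CPM in controls 1 and 3 (0.97, SE 0.37), and Lef1 119.2 and 93.1 CPM against 88.4 and 53.0 CPM (0.75, SE 0.29). Tbx21 was lower in both knockout libraries, at 144.8 and 136.9 CPM against 205.2 and 167.9 CPM (-0.36, SE 0.20). Thus 3 members (Tcf7, Lef1 and Id3) lay higher and 2 (Tbx21 and Zeb2) lower with no overlap of 2 against 2 libraries, where 13.8% of the 7738 genes tested lay higher and 15.8% lower without overlap. Of these 5 members, Tcf7 and Id3 did not overlap between the mice of knockout 3 and control 3 either (Tcf7 at 129.8 and 87.0 CPM against 40.8, 48.9 and 33.9 CPM). These mice are cells of libraries already compared, and the share of all genes without overlap between them was not counted. The mice overlapped for Lef1 (127.4 and 37.8 CPM against 43.1, 57.4 and 101.8 CPM), Tbx21 (76.9 and 234.6 CPM against 157.6, 203.0 and 158.4 CPM) and Zeb2. Ikzf2 had 349.7 and 314.8 CPM in knockouts 1 and 3 and 498.8 and 55.6 CPM in controls 1 and 3 (0.43, SE 0.77), and 2.58 without control 1.

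Without tumour-RNA cells and with the block, 4 members passed in effector CD8 T cells, where 0.953% of 7660 genes did: Id3 (2.20, adjusted p = 1.2e-07), Zeb2 (-0.95, adjusted p = 0.0017), Ikzf2 (0.96, adjusted p = 0.0015) and Tcf7 (0.88, adjusted p = 0.035). In all T cells under the same setting Zeb2 (-1.18, adjusted p = 0.0056) and Id3 (0.87, adjusted p = 0.042) passed, where 0.382% of 11516 genes did. Both fits left 1 residual degree of freedom. For Ikzf2 in effector CD8 T cells the pairs went opposite ways. Knockout 1 lay below control 1 (349.7 against 498.8 CPM), where no cell held tumour RNA. Knockout 3 lay above control 3 (314.8 against 55.6 CPM with all gated cells). Most effector CD8 T cells came from control 3 (1157 of 1461, against 113 in knockout 1, 124 in knockout 3 and 67 in control 1). Hepatocyte RNA in effector CD8 T cells was 10.0 to 156 CPM in knockout and 78.9 to 494 CPM in control libraries; its part in these values was not tested.

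In naive-like CD8 T cells none of 8 members tested passed (0.0511% of 5871 genes did, namely Mt1, H19 and Rbp4, named after their values were seen; 0 did without the cells that held tumour RNA). Lef1 stood at -0.27 (SE 0.24), Tcf7 at -0.43 (SE 0.30) and Id3 at 0.08 (SE 0.38). In ILC1-like, conventional CD4 and regulatory T cells fewer than 2 libraries of a group reached 10 cells. With Ncr1 left out of the NK gate, ILC1-like cells could be compared in 2 against 2 libraries, and none of 8 members tested passed (0% of 5423 genes, 200 at an unadjusted p under 0.05). Ikzf2 stood there at -2.08 (SE 0.55) and Tox at -1.22 (SE 0.42), both with an adjusted p of 1. With mice as units and the replicate block, conventional CD4 T cells could be compared in 3 against 3 units, and none of 8 members passed (0% of 3833 genes, 102 at an unadjusted p under 0.05), with Lef1 at 1.31 (SE 0.62).

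**Figure D4:**
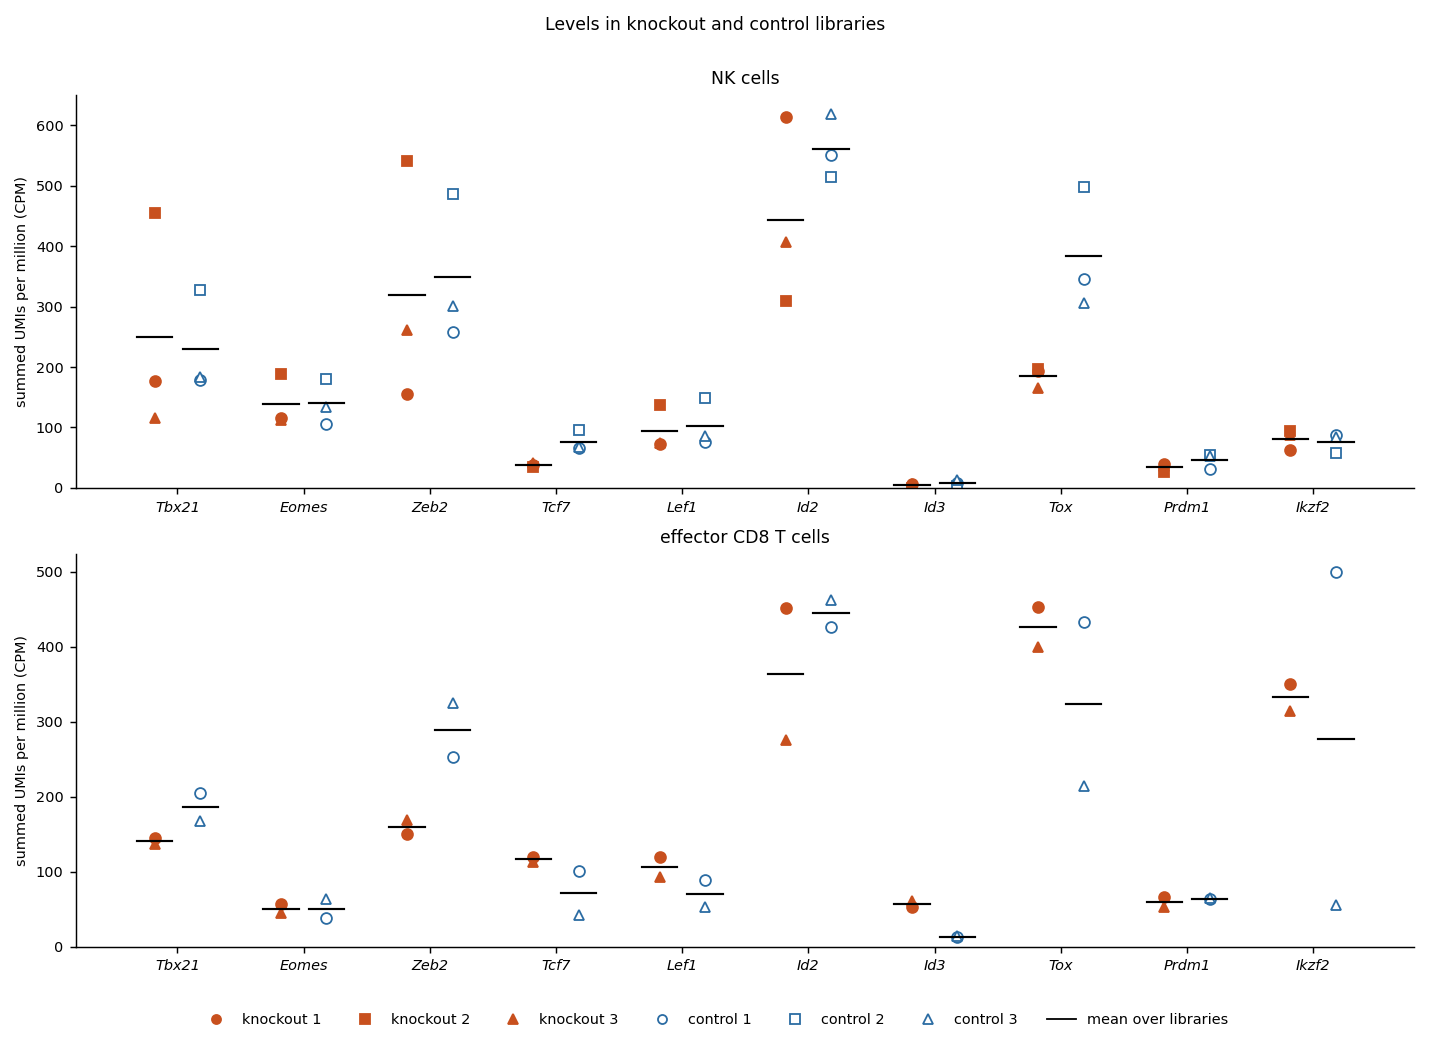
Level of each gene (vertical axes, summed UMIs in CPM, from 0) in NK cells of 3 knockout and 3 control libraries (top) and in effector CD8 T cells of 2 and 2 (bottom), knockout libraries (filled) left of control libraries (open), with the mean of each group as a bar. In NK cells Tox and Tcf7 are lower in every knockout library, and in effector CD8 T cells Id3 is at 52.3 and 61.6 CPM in knockouts against 12.6 and 14.0 CPM in controls.

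**Figure D5:**
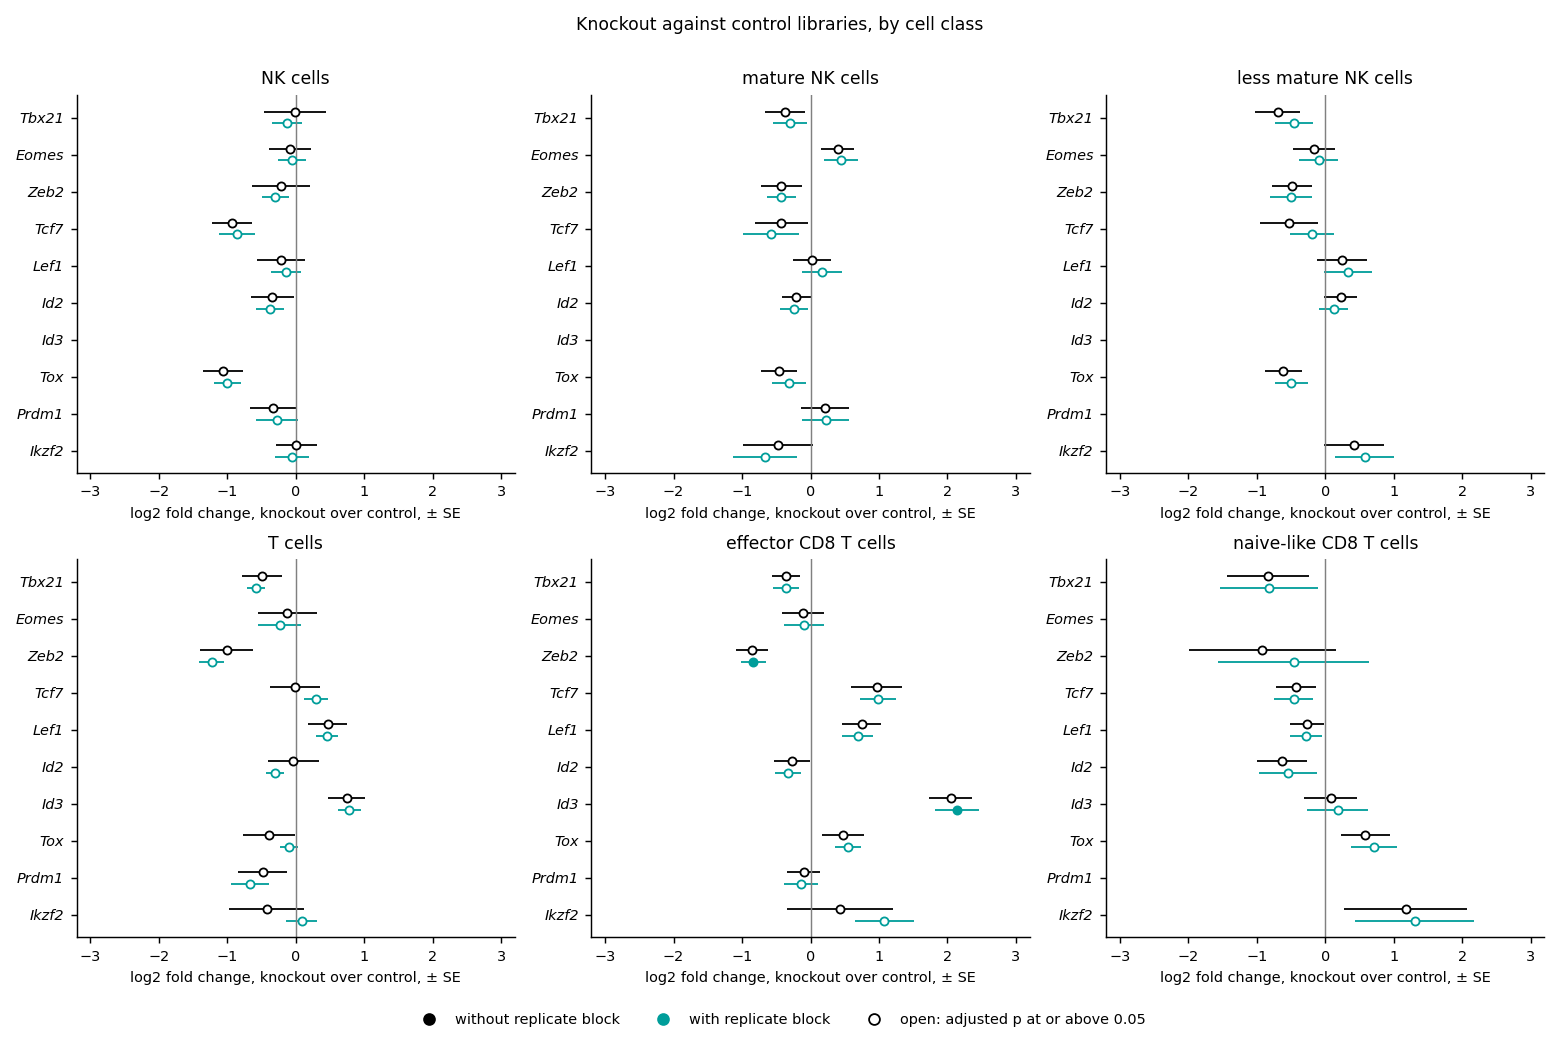
Log2 fold change ± SE of each gene, knockout over control (horizontal axes), in 6 cell classes, without (black) and with (green) the replicate number as a block; filled points have an adjusted p under 0.05. Only Id3 (2.13) and Zeb2 (-0.83) in effector CD8 T cells are filled, both with the block, whose pairing of libraries by number is not settled.

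The other genes of the network were read as 3 lists: 38 further lymphocyte transcription factors, 13 genes linked to T-bet and Eomes (cytotoxic and signalling genes) and 15 linked to Tcf7 and Lef1, of which 14 counted between subsets because Ltb served in a gate. The lists share members such as Foxp1, Satb1 and Bach2. In naive-like over effector CD8 T cells, 12 of 13 genes linked to T-bet and Eomes were lower, 0 higher, and their median was -1.94, against 0.005 over all genes tested, of which 12.5% were lower and 14% higher. They included the chemokine Ccl4 (-5.61), the cytokine Ifng (-5.22) and the granule protein Nkg7 (-1.94). Of 13 tested genes linked to Tcf7 and Lef1, 12 were higher and 1 lower, with a median of 2.43. The repressor Bach2 (3.09) and the factor Foxp1 (2.43) were higher, and Cd7, a surface protein of lymphocytes, was lower (-3.72). Of 28 further transcription factors 9 were higher, among them Satb1 (2.94), and 8 lower.

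In ILC1-like over mature NK cells, 7 of 12 genes linked to T-bet and Eomes were lower and 2 higher (median -0.92, against -0.02 over all genes, of which 9.78% were lower and 15.2% higher), among them the pore-forming Prf1 (-2.11) and the interleukin 18 receptor chain Il18rap (-1.84). Of the 28 further factors 11 were lower, such as Irf8 (-1.94) and Klf2 (-2.05), and 1 higher, Rora (1.90), a nuclear receptor of innate lymphoid cells. Of 8 genes linked to Tcf7 and Lef1, 3 were higher and 3 lower (median -0.26), with the interleukin 7 receptor Il7r at 3.39. These ILC1-like counts use all gated cells, where 25% of genes passed, against 4.48% without tumour-RNA cells. The lists were not counted without those cells, where Tbx21 and Lef1 lost their lower calls. In less mature over mature NK cells 5 of 11 genes linked to T-bet and Eomes were lower and 1 higher (median -0.49, against 0.01 over all genes, of which 2.05% were lower and 2.67% higher), and the chemokine Xcl1 was the higher one (0.93). There 1 of 23 further factors was higher (Bhlhe40, 0.82) and 0 lower, a share near that of all genes, and 0 of 6 genes linked to Tcf7 and Lef1 passed in either direction.

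Cells with checkpoint UMIs held 5 of 10 genes linked to Tcf7 and Lef1 at lower levels and 0 higher (median -0.72, against -0.02 over all genes, of which 3.39% were lower and 3.05% higher), with Il7r at -2.07. Of 29 further factors 7 were lower, such as Foxp1 (-1.07), and 2 higher, one of them the nuclear receptor Nr4a2 (0.88), and of 13 genes linked to T-bet and Eomes 2 were higher, such as the chemokine Ccl3 (1.41), and 2 lower. In NK over T cells, where 3.83% of all genes were higher and 4.21% lower, 8 of 13 genes linked to T-bet and Eomes were higher, led by Prf1 (3.05), and 1 lower, 6 of 13 linked to Tcf7 and Lef1 were lower, such as Il7r (-3.25), and 0 higher, and of 35 further factors 2 were higher and 6 lower, with Irf8 at 2.84 and Bcl11b, a T lineage factor, at -4.08. In regulatory over conventional CD4 T cells, where 1.31% of all genes were higher and 1.52% lower, 1 of 30 further factors was higher and 3 lower, 2 of 7 linked to T-bet and Eomes were lower (Nkg7, -2.0, and Xcl1) and 0 higher, and 3 of 12 linked to Tcf7 and Lef1 were lower and 0 higher, such as Igfbp4 (-4.24). Xcl1 had no UMI in regulatory T cells of knockout 1 and control 3, which allows up to 18.0 and 11 CPM, against 120.2 and 70.6 CPM in conventional ones.

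Between knockout and control no gene of the 3 lists passed in any of the 6 classes. In NK cells the medians were -0.15, -0.19 and -0.27 for the further factors, the genes linked to T-bet and Eomes and those linked to Tcf7 and Lef1, against -0.002 over all genes, with Nr4a3 at 1.12, Cxcr3 at -0.66 and Ltb at -0.73. In effector CD8 T cells they were 0.14, -0.01 and 0.08, against -0.003 over all genes, with the factor Myb at 1.67 and Xcl1 at 1.55.

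Likeness of pattern was measured as Pearson's r over the 9 subsets among 6294 genes. Each subset's value was the mean over libraries of log2(CPM + 10). The measure is a description, since subsets share libraries. It uses all gated cells, tumour-RNA cells included. Each nearest gene is the highest of 6294 over only 9 subsets, and the r that unrelated genes reach was not computed. Nearest to Tbx21 was Ptpn9 (0.98), to Eomes Prr5l (0.98), to Zeb2 Kif13b (0.95), to Tcf7 Gphn (0.97) and to Lef1 Tpt1 (0.98). Nearest to Id2 was Spcs3 (0.99), to Id3 Slco3a1 (0.96), to Tox Cdc25b (0.95), to Prdm1 Ttc39b (0.98) and to Ikzf2 the cell cycle gene Ccnb1 (0.96). Among the 10 members themselves r was 0.86 for Tbx21 and Id2, 0.84 for Tcf7 and Lef1, 0.82 for Tbx21 and Zeb2 and for Tcf7 and Id3, and it was lowest for Lef1 and Id2 (-0.69).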

How the data were processed

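UMI counts per gene and barcode were deposited by the authors for 6 libraries (10x 3′, GRCm39, per the submitters' processing notes), raw and not normalized, with Cell Ranger 7.0.1 (replicates 1 and 2, called cells) or 9.0.1 (replicate 3, all barcodes), per the file headers. Barcodes under 500 UMIs or 300 genes, or over 20% mitochondrial UMIs, were dropped. In replicate 3 a test against ambient RNA dropped 123 more in knockout 3 and 153 in control 3. The highest Scrublet doublet scores were then removed at a preset 0.8% per 1000 cells (62, 0 and 206 in knockouts 1, 2 and 3, and 58, 2 and 796 in controls 1, 2 and 3). Scrublet's own threshold predicted 2, 4 and 2 doublets in the knockouts and 1, 3 and 1 in the controls. Cell classes were gated on marker UMIs, and counts were summed per library and class with at least 10 cells. Sums were tested with edgeR 4.0.16 in R 4.3.3 (quasi-likelihood, TMM, filterByExpr, Benjamini-Hochberg over all genes), in knockout against control libraries or between classes with library as a block. DESeq2 1.42.0 was the alternative. The fit was tested on simulated data. Named genes were the 10 members, chosen, like the lists, with earlier results of these data known. Replicate numbers served as a block in some fits. In NK cells deviations of same-numbered libraries correlated at 0.40, 0.54 and 0.43 over 8008 genes, each over 0.1. Those of different numbers stood at -0.50 to 0.40 (knockout 3 with control 1 at 0.40). In T cells same-numbered libraries stood at 0.25 and 0.55, but knockout 1 with control 2 also at 0.25. This check therefore does not settle whether libraries 1 and 3 are paired. P-values measure the spread between libraries. One marker of the gates for naive-like and effector CD8 T cells is not reported here.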

Additional observations from a re-analysis of the deposited data

How the results depend on the processing

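Over 20 settings, 1626 member values were recomputed: 1437 kept direction and side of the threshold, 57 lost a call, 30 gained one and 102 turned sign. The removal of tumour-RNA cells was chosen after seeing the data. With the replicate block, knockout against control called 15 genes in NK cells, 2 in T cells, 38 in mature NK cells, 43 in effector CD8 T cells and 15 in naive-like CD8 T cells, against 0, 0, 0, 0 and 3 without it; beyond Id3 and Zeb2 in effector CD8 T cells the block changed no member's call between knockout and control. With the block and no tumour-RNA cells the counts were 12, 44, 40 and 73 in NK, T, mature NK and effector CD8 T cells. Without a filter on low counts they were 72, 62, 30, 173 and 53 in NK, mature NK, less mature NK, effector and naive-like CD8 T cells. DESeq2 called 8, 3 and 2 genes in mature NK, less mature NK and effector CD8 T cells. Less mature NK cells had 2 with mice as units and 2 with 1 more UMI in the gates. Naive-like CD8 T cells had 6 without TMM, 0 with mice as units and 0 without tumour-RNA cells. The NK minus T effect had 4 with DESeq2, 19 with 1 more gate UMI and 42 without tumour-RNA cells.

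Leaving out a library gave 0 called genes in NK cells each time, 0 to 2 in T cells (2 without knockout 1), 0 to 18 in mature NK cells (18 without knockout 1, 3 without knockout 3), 0 to 5 in less mature NK cells (5 without knockout 3), 0 to 201 in effector CD8 T cells (201 without control 1, where Ikzf2, Tcf7, Id3 and Zeb2 stood at 2.58, 1.46, 2.02 and -1.03), 28 to 85 in naive-like CD8 T cells and 0 to 84 for the NK minus T effect (84 without control 1, 61 without control 3, 8 without knockout 3). An arm left with 1 library was assumed to vary like the others.

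Between subsets, ILC1-like against mature NK cells called 860 genes with DESeq2, 1044 to 1921 without a library (1044 without control 1), 232 with 1 more gate UMI, 243 without tumour-RNA cells and 53 thinned, against 1578. Less mature against mature NK cells called 59 with DESeq2, 296 unfiltered, 58 to 185 without a library (58 without control 1, 64 without control 3, 108 without knockout 3), 13 without the library block and 75 thinned, against 184. Naive-like against effector CD8 T cells called 948 to 1472 without a library (948 without knockout 3, 989 without knockout 1) and 450 thinned, against 1589. Regulatory against conventional CD4 T cells called 32 with DESeq2, 208 unfiltered, 2 with multiplets removed, 22 with 1 more gate UMI, 9 without the library block and 0 thinned, against 132. The checkpoint split called 189 with DESeq2, 76 to 485 without a library (76 without knockout 1, 141 without knockout 3, 214 without control 1), 548 with 1 more gate UMI, 839 without tumour-RNA cells, 47 without the library block and 40 thinned, against 355. NK against T cells called 1240 unfiltered, 475 to 879 without a library (475 without knockout 1, 483 without knockout 3) and 1488 without tumour-RNA cells, against 758.

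Signs turned in 102 member values, none with a call on either side, and in 91 of them the reported value lay within 1 SE of 0. In NK cells 1 member was positive and 8 negative as reported, against 4 and 5 without control 2 or without knockout 1, and 0 to 4 were positive over all settings. Between knockout and control in NK cells they turned for Tbx21 (-0.59 to 0.33 without a library, turned without knockout 1, control 2 or knockout 3, 0.0262 with DESeq2, 0.0328 without TMM, 0.0577 without tumour-RNA cells, 0.0081 without tumour-RNA cells and with the block), Eomes (-0.23 to 0.068 without a library, turned without knockout 1, control 2 or knockout 3, 0.0553 without tumour-RNA cells, 0.077 without tumour-RNA cells and with the block), Zeb2 (-0.68 to 0.12 without a library, turned without knockout 1 or control 2), Lef1 (-0.40 to 0.0411 without a library, turned without control 2) and Ikzf2 (-0.16 to 0.18 without a library, turned without control 2, knockout 2 or knockout 3, -0.0525 with the replicate block, -0.0438 unfiltered, -0.19 without libraries 2, -0.23 with mice as units, -0.0025 without multiplets, -0.42 with 1 more gate UMI, -0.0837 without Ncr1 in the gate, -0.63 under the lower mitochondrial limit). In T cells they turned for Eomes (-0.85 to 0.36 without a library, turned without control 2 or knockout 3, 0.0024 without libraries 2), Tcf7 (-0.30 to 0.23 without a library, turned without control 1, control 2 or knockout 3, 0.29 with the replicate block, 0.0042 with DESeq2, 0.0137 unfiltered, 0.23 without libraries 2, 0.27 with mice as units, 0.0454 with 1 more gate UMI, 0.12 under the lower mitochondrial limit, 0.19 without tumour-RNA cells, 0.35 without tumour-RNA cells and with the block), Id2 (-0.28 to 0.21 without a library, turned without control 1, control 3 or knockout 3, 0.0328 under the lower mitochondrial limit, 0.0209 without tumour-RNA cells) and Ikzf2 (0.0856 with the replicate block, 0.15 without tumour-RNA cells and with the block). In mature NK cells they turned for Zeb2 (-1.11 to 0.0215 without a library, turned without knockout 1), Lef1 (-0.0784 to 0.18 without a library, turned without control 1, knockout 1 or control 3, -0.0097 without TMM, -0.0257 unfiltered, -0.24 without Ncr1 in the gate, -0.0024 without tumour-RNA cells), Prdm1 (-0.0208 to 0.59 without a library, turned without control 1, -0.0727 without Ncr1 in the gate) and Ikzf2 (-1.44 to 0.25 without a library, turned without knockout 3). In less mature NK cells they turned for Eomes (-0.60 to 0.14 without a library, turned without knockout 1), Lef1 (-0.46 to 0.67 without a library, turned without knockout 3, -0.17 with mice as units, -0.08 without Ncr1 in the gate) and Ikzf2 (-0.45 to 0.91 without a library, turned without knockout 3). In effector CD8 T cells they turned for Eomes (-0.31 to 0.49 without a library, turned without control 3 or knockout 3), Id2 (-0.64 to 0.0404 without a library, turned without knockout 3), Prdm1 (-0.23 to 0.0344 without a library, turned without knockout 3) and Ikzf2 (-0.52 to 2.58 without a library, turned without control 3). In naive-like CD8 T cells they turned for Zeb2 (-1.07 to 0.086 without a library, turned without knockout 1), Id3 (-0.10 to 0.80 without a library, turned without control 1 or knockout 3, -0.0368 with mice as units) and Ikzf2 (-0.64 to 2.28 without a library, turned without control 3 or knockout 3). In the NK minus T effect they turned for Tbx21 (-0.33 to 0.19 without a library, turned without control 2 or control 3, 0.18 with 1 more gate UMI, 0.20 without tumour-RNA cells), Eomes (-0.59 to 0.63 without a library, turned without control 2 or knockout 3), Zeb2 (-0.21 to 0.78 without a library, turned without knockout 3), Id2 (-0.38 to 0.0264 without a library, turned without control 2, 0.0114 without tumour-RNA cells), Prdm1 (-0.0484 to 0.60 without a library, turned without knockout 3) and Ikzf2 (-0.50 to 0.91 without a library, turned without control 1, control 2 or knockout 3, -0.42 with 1 more gate UMI). In ILC1-like against mature NK cells they turned for Tcf7 (-0.64 to 0.0169 without a library, turned without control 3, 0.28 with 1 more gate UMI, 0.29 without tumour-RNA cells) and Id2 (0.23 with 1 more gate UMI, 0.19 without tumour-RNA cells, 0.18 thinned). In the checkpoint split they turned for Tbx21 (0.0869 thinned), Id2 (-0.20 to 0.066 without a library, turned without knockout 3), Id3 (-0.27 to 0.14 without a library, turned without control 3, 0.0214 without the library block) and Prdm1 (-0.0222 to 0.11 without a library, turned without knockout 3, -0.0007 with 1 more gate UMI, -0.0575 without tumour-RNA cells). The cause was not tested. Depth limits knockout 2 (29 NK cells) and the regulatory T cells (12 and 40).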
